A study of Rattus norvegicus with 8 samples.

Results

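The loci described here are those whose symbol is the letters LOC followed by digits, the provisional symbol that NCBI gives to a predicted gene and whose digits are the gene's NCBI ID. All 3' end sites with such a symbol were taken from the 8 libraries: 6324 of the 98356 sites (6.43%), in 3738 of the 18003 symbols that had a site. The choice used the symbol alone and no measured value. The samples were hypothalami of adult male Long-Evans rats, 4 exposed for 10 min to vaporized cannabis and 4 to air alone, with tissue taken 1 hr after exposure. The labels give no other treatment and no engineered allele for either group. Each library came from the hypothalamus as a whole, so fewer cells of a type and less RNA per cell cannot be told apart in any difference below. The cannabis libraries are numbered 1, 2, 3 and 5, and the air controls 1 to 4, after the labels.

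WTTS-Seq (whole transcriptome termini site sequencing) sequences RNA at its poly(A) tail, so each read marks where an RNA was cleaved before the tail was added. A gene can have several such sites, and the use of one in place of another is alternative polyadenylation (APA). Symbols of the LOC kind cover long non-coding RNAs (lncRNAs, transcripts with no long open reading frame, often expressed in few cell types), protein-coding genes still without an agreed name, and pseudogenes. Among the last, processed pseudogenes are copies of a messenger RNA inserted back into the genome, and genes that are abundantly transcribed in the germ line, such as those of ribosomal proteins, have left many of them. Since 1 read stands for 1 RNA end whatever the transcript's length, levels can be set side by side between loci. A read that matches several near-identical copies can be given to any of them, and how such reads were placed is not given in the sources used here, so the levels of a pseudogene and of the gene it copies are uncertain against each other.

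Promoter sequences from RefSeq (build GRCr8, 250 bases before to 50 after the annotated start) show the kind of start that some of these loci have. The first 3 below are the most abundant LOC loci with an entry, and the last 3 are those with an entry and the smallest P between the groups. Each is written 5' to 3' on its gene's strand, and capitals mark the TATA box motif TATAAA, the CCAAT box motif CCAAT and the GC box motif GGGCGG on either strand, none overlapping another in these 6.
LOC691995, chr10:56255689-56255988, minus strand: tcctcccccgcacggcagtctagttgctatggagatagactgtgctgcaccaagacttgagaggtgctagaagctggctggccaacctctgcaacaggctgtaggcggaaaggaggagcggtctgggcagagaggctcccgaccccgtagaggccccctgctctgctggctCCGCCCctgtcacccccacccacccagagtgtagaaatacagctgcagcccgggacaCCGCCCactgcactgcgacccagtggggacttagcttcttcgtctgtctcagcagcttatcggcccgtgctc
LOC100911992, chr2:175965710-175966009, plus strand: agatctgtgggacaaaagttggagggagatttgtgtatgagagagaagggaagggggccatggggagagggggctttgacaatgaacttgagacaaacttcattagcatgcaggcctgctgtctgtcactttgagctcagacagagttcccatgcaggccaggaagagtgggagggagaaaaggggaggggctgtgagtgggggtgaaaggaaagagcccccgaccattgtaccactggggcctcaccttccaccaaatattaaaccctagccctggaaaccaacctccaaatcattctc
LOC100360522, chr17:8437905-8438204, minus strand: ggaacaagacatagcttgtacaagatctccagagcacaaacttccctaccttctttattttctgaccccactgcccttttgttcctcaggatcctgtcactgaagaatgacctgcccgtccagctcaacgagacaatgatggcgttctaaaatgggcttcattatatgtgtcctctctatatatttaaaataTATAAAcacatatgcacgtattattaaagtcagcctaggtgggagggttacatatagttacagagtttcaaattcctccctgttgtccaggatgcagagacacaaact
LOC689904, chr9:41130212-41130511, minus strand: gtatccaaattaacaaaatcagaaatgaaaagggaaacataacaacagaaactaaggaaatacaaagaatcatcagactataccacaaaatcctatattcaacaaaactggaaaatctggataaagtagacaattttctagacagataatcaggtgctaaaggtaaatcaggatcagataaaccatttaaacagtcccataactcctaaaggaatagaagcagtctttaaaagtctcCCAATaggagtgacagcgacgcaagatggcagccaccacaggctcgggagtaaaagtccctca
LOC102549869, chrX:30873680-30873979, minus strand: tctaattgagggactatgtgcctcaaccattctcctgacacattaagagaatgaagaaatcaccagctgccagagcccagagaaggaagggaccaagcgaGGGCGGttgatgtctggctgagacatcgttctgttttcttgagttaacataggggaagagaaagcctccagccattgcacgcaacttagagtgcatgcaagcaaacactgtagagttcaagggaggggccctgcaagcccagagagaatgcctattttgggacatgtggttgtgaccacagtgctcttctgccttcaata
LOC303566, chr10:87705954-87706253, plus strand: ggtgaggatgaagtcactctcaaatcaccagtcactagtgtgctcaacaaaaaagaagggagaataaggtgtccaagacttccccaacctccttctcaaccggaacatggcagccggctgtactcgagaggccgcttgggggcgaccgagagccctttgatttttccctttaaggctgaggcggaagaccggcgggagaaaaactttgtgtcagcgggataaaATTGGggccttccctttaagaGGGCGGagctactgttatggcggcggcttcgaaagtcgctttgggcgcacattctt
LOC691995 held 2 matches to GGGCGG and LOC100360522 the only match to TATAAA of the 6, while LOC100911992 held none of the 3 motifs. Over the 1186 LOC loci with a promoter entry, 24.3% held GGGCGG, against 59.3% of the 10706 entries for other symbols of the files and 34.9% of all 27457 entries. The 1186 were 700 lncRNAs (22.1% with GGGCGG) and 486 protein-coding loci (27.4%). Loci typed as pseudogenes and loci without a RefSeq entry were not among them. TATAAA was in 15.2% of the LOC promoters and 7.34% of those of the other symbols (14.3% of all), and CCAAT in 38.9% and 37.1% (37.7% of all). The LOC promoters were also poorer in G and C, with a median of 49.2% and 6 CpG dinucleotides against 60.3% and 20 for the other symbols. A match describes these 300 bases and is not a binding site.

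LOC loci mostly had few sites and few reads. Of the 3738 loci, 2578 (69.0%) had 1 site, against 30.3% of the 13803 symbols that were neither LOC nor RGD-numbered, and the mean was 1.69 sites per locus against 4.12. Another 642 loci had 2 sites, and 27 had 10 or more. The median LOC site had 32 reads over the 8 libraries together, where the lowest number in the files was 16 and the median site of the other symbols had 39. A mean of 10 or more normalized counts was reached by 18.9% of LOC sites and 27.6% of the others. Few sites and few reads were not particular to LOC symbols. Of the RGD-numbered symbols 56.5% had 1 site, with a mean of 2.46 sites, though their median site had 39 reads. Sites without a gene symbol had a median of 28 reads, and 14.6% of them reached a mean of 10. Summed over its sites, the median LOC locus had a mean of 5.73 normalized counts (quartiles 2.80 and 15.1), against 34.3 for the remaining symbols.

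**Figure D1:**
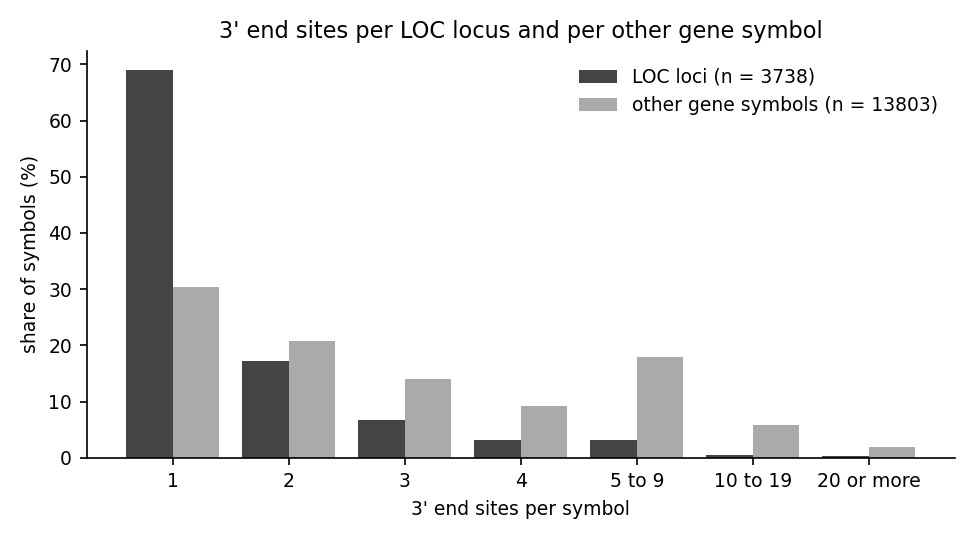
Share of symbols (%) by the number of 3' end sites they had, for the 3738 LOC loci (dark) and the 13803 other gene symbols (light). The dark bar reaches 69.0% at 1 site, and both of its bars from 10 sites on stay under 1%.

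Of the 5 loci with most sites, 4 have since been given gene names. LOC304725, now Cntnap5bl1 and named for a contactin-associated protein of the neurexin superfamily, had 40 sites. LOC103692025 (Lhfpl3) had 38, LOC100911395 (Agbl4, a carboxypeptidase that trims glutamates from tubulin) 36 and LOC102551716 (Nkain2, which interacts with the sodium pump) 33. LOC100362819 had 36 sites and is not in the RefSeq table used here. Their summed levels were moderate, with means of 164, 294, 202, 113 and 457 normalized counts for LOC304725, LOC103692025, LOC100911395, LOC102551716 and LOC100362819, so these reads were spread thinly over many sites.

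Matched by gene ID to RefSeq GRCr8, 2185 of the 3738 loci had an entry: 1022 kept a LOC symbol and 1163 have been named since. The entries were 835 lncRNAs, 734 pseudogenes, 577 protein-coding genes, 29 transcribed pseudogenes, 8 V segments and 2 RNAs of other types. The pseudogenes held 25.2% of all LOC reads, the protein-coding genes 21.8% and the lncRNAs 14.7%. The 1553 loci not in the table held 37.2%. Level and number of sites differed between the types: 48.9% of the protein-coding loci had a mean of 10 or more normalized counts, against 30.2% of the lncRNAs and 35.7% of the pseudogenes, and 79.2% of the pseudogenes had 1 site, against 66.1% of the lncRNAs and 56.5% of the protein-coding loci.

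Reads were concentrated in a few loci. The 10 most abundant held 21.7% of the 870668 LOC reads, and 100 loci held 50.1%. LOC100362110 alone, with 1 site that the authors' annotation calls intronic in a protein-coding gene, held 10.9%. Its levels were 9926, 14017, 10836 and 11572 normalized counts in air controls 1 to 4, and 14901, 5736, 11300 and 11988 in cannabis 1, 2, 3 and 5. The lowest of the 8 values was in cannabis 2 and the highest in cannabis 1, so the groups overlapped, and with a mean of 11284 it was the 9th most abundant site of all 98356. LOC100362110 is not in the RefSeq table, and nothing here says what its RNA is.

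Several of the next most abundant loci were pseudogene copies of widely expressed genes. LOC108349721 (Rps23-ps12, a copy of a small ribosomal subunit protein gene) had from 1144 to 1889 normalized counts in air controls and from 1142 to 2014 in cannabis, and LOC292518 (Rpl7-ps16, a copy of a large subunit protein gene) from 551 to 1207 and from 577 to 1323. LOC500299 (Hsp90aa1-ps14), after the chaperone gene induced by heat, varied most of those described: 1243, 425, 1477 and 1773 in air controls 1 to 4, and 3240, 1165, 344 and 1311 in cannabis 1, 2, 3 and 5. Cannabis 1 and cannabis 3, at its extremes, enclosed all 4 controls.

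The other abundant loci were of mixed kind. LOC691995 (6330403K07Rikl, typed protein-coding) had a mean of 983 normalized counts, LOC100360522 (protein-coding) 778, LOC108348176 (no entry in the table) 730, and LOC100361934 (Ndufb4l4, like a subunit of respiratory complex I) 719. The authors' annotation calls LOC108348176 and LOC100361934 transcribed pseudogenes, while RefSeq types the latter protein-coding. LOC100911992, the most abundant lncRNA, had a mean of 856 over its 7 sites and was also among the steadiest loci: 886, 831, 843 and 747 in air controls 1 to 4, and 756, 912, 811 and 1060 in cannabis 1, 2, 3 and 5. One distal site carried 91.2% of that RNA's level. The 2 groups overlapped in each of the 9 loci described.

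**Figure D2:**
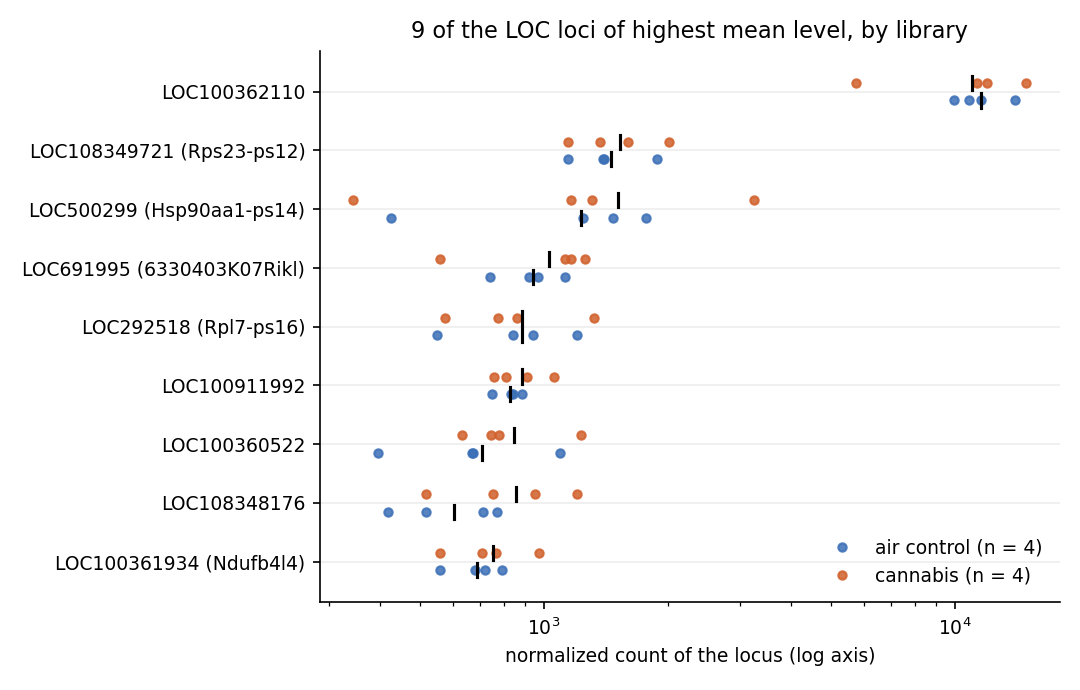
Normalized counts (log axis) of 9 of the 10 LOC loci of highest mean level, 1 point per library (blue, air control, n = 4; orange, cannabis, n = 4), with black ticks at the group means. LOC100362110 lies apart near 11284, LOC500299 spreads from 344 to 3240, and points of both colours overlap in each row.

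The levels of copies were set beside those of the genes they are named for, though reads that match both make these levels uncertain against each other. In all, 657 LOC loci carry a RefSeq name that ends in -ps and a number, which marks a pseudogene of the gene before the hyphen, and these held 24.5% of LOC reads. The gene itself had sites in the files for 539 of them and was not analysed here for the other 118. The median copy had 7.27% of the level of its gene (quartiles 2.05% and 29.5%), and 59 copies had more than their gene. Among families, 183 loci named for cytosolic ribosomal proteins held 9.31% of LOC reads, 41 named for heat shock chaperones 3.77%, and 29 named for the mitochondrial respiratory chain 2.40%.

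Several copies were given many times the reads of their gene. How reads that match both were placed is not known, so these levels do not show which of them was transcribed. LOC367275 (Rpl11-ps6) had a mean of 597 normalized counts against 2.63 for Rpl11, which encodes a large ribosomal subunit protein. LOC292518 had 884 against 20.1 for Rpl7, and LOC108349721 had 1494 against 89.6 for Rps23. For Hspa8, a constitutively expressed heat shock chaperone, 17 copies summed to 1420 against 42.7 for the gene itself. The order was the other way for Fth1, the heavy chain of the iron store ferritin, where LOC689130 (Fth1-ps5) had 566 against 2922, and for Eef1a1, a translation elongation factor, where 11 copies summed to 492 against 2962.

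**Figure D3:**
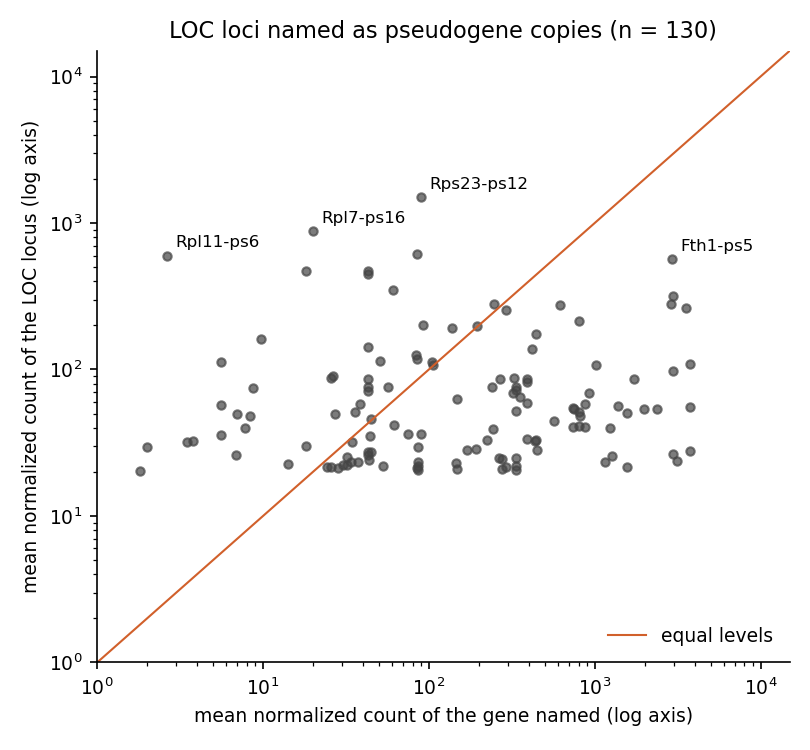
Mean normalized count over the 8 libraries (both axes log) of the gene a copy is named for and of the copy, for the 130 reported LOC loci named -ps with a mean of 20 or more and a gene with sites in the files. The line marks equal levels. Of the 130 points 43 lie above it, with Rpl11-ps6 and Rpl7-ps16 farthest up and to the left. Reads that match both gene and copy may have been given to either.

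The spread among the 8 libraries was wider for LOC loci than for other symbols of like abundance. The coefficient of variation (CV, the SD as a share of the mean) was taken over all 8 libraries. Its median was 33.3% for the 141 LOC loci with a mean from 100 to 500 normalized counts, against 23.0% for the 2914 other symbols in that range. In the range from 50 to 100 it was 34.6% against 27.0%, and at 500 or more 26.2% against 23.2%. From 5 to 50, the range of 1729 LOC loci, it was 48.1% against 38.8%. By type, for means of 50 or more, the median was 24.8% for 44 lncRNAs, 30.4% for 79 protein-coding loci, 32.8% for 93 loci not in the table and 47.3% for 82 pseudogenes. A wide spread was not particular to LOC symbols. For single sites with a mean of 50 or more, the median was 37.6% at LOC sites and 40.1% at sites without a symbol. It was 33.5% at RGD-numbered sites and 29.3% at sites of the other gene symbols. These medians describe the same 8 libraries and loci that can share reads, so they were not tested.

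**Figure D4:**
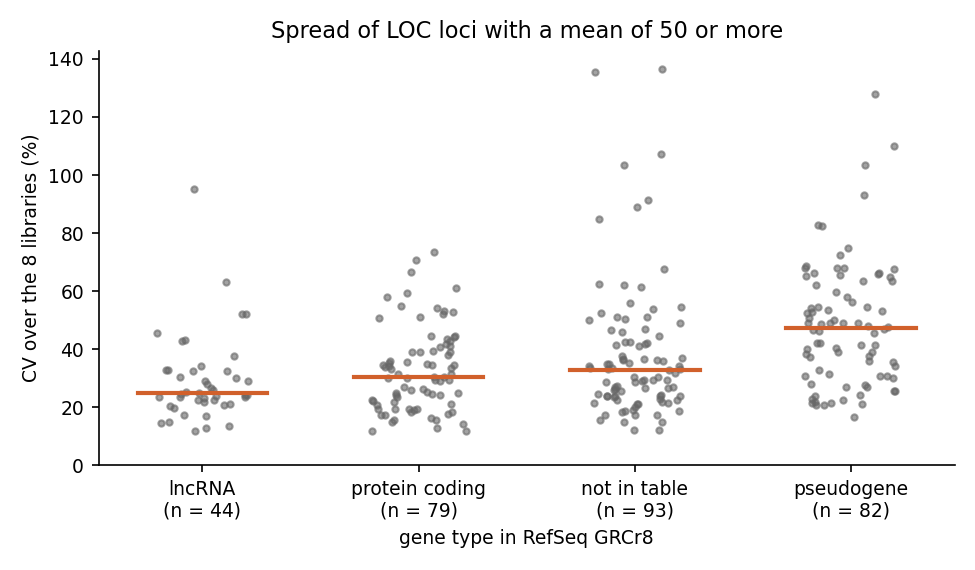
CV over the 8 libraries (%) of each LOC locus with a mean of 50 or more normalized counts, by its type in RefSeq GRCr8, with orange lines at the medians. The median of the pseudogenes, 47.3%, lies above those of the other 3 types, whose values range widely.

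The steadiest loci with a mean of 50 or more normalized counts were LOC684270 (Isoc2a, typed protein-coding), with a CV of 11.7%, LOC100911992, also 11.7%, and LOC304725, 12%. LOC684270 had from 77.8 to 89.4 normalized counts in air controls and from 61.0 to 87.7 in cannabis. In the 3 most variable of the loci with a mean of 50 or more, 1 or 2 libraries carried most of the level. LOC257642 had 80.4, 55.1, 121 and 369 in air controls 1 to 4, and 797, 37.2, 33.5 and 69.1 in cannabis 1, 2, 3 and 5. Its 2 high values were in the library with the fewest reads of each group, cannabis 1 and air control 4. LOC102550441 had 698 in air control 1 and from 17.7 to 140 elsewhere. LOC691091 (Hsp90aa1-ps15) had 223 in cannabis 3, the library in which Hsp90aa1-ps14 was lowest, and from 10.8 to 54.8 in the other 7.

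Whether cannabis exposure shifted these loci as a group was asked first from their share of all reads. LOC sites held 4.17%, 4.22%, 4.23% and 4.26% of the reads in air controls 1 to 4, and 4.26%, 4.05%, 4.16% and 4.33% in cannabis 1, 2, 3 and 5. The controls lay inside the range of the cannabis libraries. The mean was 4.22% ± 0.040 in controls and 4.20% ± 0.123 in cannabis (SD, n = 4 each; two-sided exact permutation test, P = 0.829). Without LOC100362110 the means were 3.72% and 3.73% (exact permutation test, P = 0.943).

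Depth differed between libraries, from 1159811 reads in air control 4 and 1919709 in cannabis 1 to 3706778 in cannabis 2. The share of LOC sites without a read was 27.8% in air control 4, 17.6% in cannabis 1 and from 3.54% to 10.6% in the other 6. These 2 libraries also deviated from their group means together (correlation 0.469 across sites, which are not independent). As to the labelled tissue, all 13 of a list of hypothalamic neuron genes had sites, and of the defining genes of neighbouring tissue Kl (choroid plexus) and Gh1 and Prl (anterior pituitary) were not analysed here, and the other 3 genes of each of those lists summed to at most 37.9 and 135 normalized counts in a library. The summed level of the 13 genes, of which Avp (vasopressin) was the most abundant, was higher in every cannabis library (8813 to 11128 normalized counts) than in every control (4554 to 6584). Of the 13, 2 passed an unadjusted P of 0.01, both higher in cannabis, where the share over all symbols was 0.278%. The part of this summed level in the differences below was not tested. The lists held no genes of other neighbouring brain regions, such as the midbrain. In the study's shortlist of differing sites, those of Slc6a3 (the dopamine transporter), Th and En1 had fewer reads in cannabis. Their part in the differences below was not tested either.

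Site by site, few LOC sites differed between cannabis-exposed and air-treated rats, and none after adjustment. In limma fits over all 98356 sites, on log2(normalized count + 1), 28 of the 6324 LOC sites (0.443%) had an unadjusted P under 0.01, against 0.381% of all sites. Of these, 10 were higher in cannabis (background 0.123%) and 18 lower (background 0.258%), with log2 differences from -3.24 to 2.47. No LOC site passed a Benjamini-Hochberg adjusted P of 0.1 (smallest 0.507), and 190 had an unadjusted P under 0.05, where the share over all sites was 3.03%. With edgeR's quasi-likelihood test on the recovered reads none passed either, and with DESeq2 1 did. The groups did not overlap at 139 LOC sites (2.2%), and this held for 2.0% of all sites. Of the 28 sites, 21 had a mean under 10 normalized counts.

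The site with the smallest P was in LOC108352127, which the authors' annotation calls an lncRNA and the site distal. It had 16.8, 57.5, 18.1 and 9.93 normalized counts in air controls 1 to 4, and 0, 0.664, 3.94 and 2.30 in cannabis 1, 2, 3 and 5, so every cannabis library lay below every control. The log2 difference was -3.24 (standard error 0.62, P = 3.1e-05 and adjusted P = 0.507 in limma, P = 0.029 by an exact permutation test, the smallest that 4 against 4 allow), and with DESeq2 it was -3.88 with an adjusted P of 0.069. Any site or locus whose groups do not overlap gives the permutation P of 0.029, so here and below it only restates that separation. LOC108352127 has 2 other sites. The most used of them, with 59.9% of the locus's level, had from 19.2 to 43.7 in controls and from 23.6 to 33.5 in cannabis, with a log2 difference of -0.13. Summed over its 3 sites, LOC108352127 had from 53.6 to 81.4 in controls and from 35.9 to 40.7 in cannabis, a log2 difference of -0.78 (standard error 0.24, P = 0.0068 and adjusted P = 0.999 in limma, P = 0.029 by an exact permutation test). In the 8 fits that each dropped 1 library, the site stayed between -3.61 and -2.76 with P under 0.01, while the total kept P under 0.01 only without air control 4 and lay between -0.87 and -0.67.

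LOC689904 was the most abundant of the 10 sites of smallest P and had the smallest P of all LOC loci. RefSeq names it Ube2v1-ps22, after a ubiquitin-conjugating enzyme variant, and types it protein-coding. It had 73.8, 44.3, 36.9 and 51.6 normalized counts in air controls 1 to 4, and 13.7, 26.6, 21.6 and 14.6 in cannabis 1, 2, 3 and 5, again without overlap. The log2 difference was -1.39 (standard error 0.33, P = 0.00084 and adjusted P = 0.999 in the limma fit of loci, P = 0.029 by an exact permutation test). With DESeq2 on the locus totals it was -1.49 with an adjusted P of 0.095. The numbers of reads were from 26 to 101 in controls and from 11 to 40 in cannabis. As for every locus named -ps here and below, reads that match both the copy and its gene may have been given to either.

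Of the other 8 sites of smallest P, 7 were lower in cannabis and 1 was higher. LOC681827 (Snw1-ps3, after a splicing and transcription cofactor) had from 9.93 to 23.4 normalized counts in controls and from 0 to 5.31 in cannabis, with a log2 difference of -2.41. LOC102549869, an lncRNA, had from 2.69 to 17.5 and from 0 to 1.24 (-2.39), and LOC303566 (Hrob, a factor of homologous recombination) from 3.97 to 11.7 and from 0 to 2.48 (-2.20). LOC102550062, an lncRNA, had from 9.40 to 23.8 and from 0 to 8.69 (-2.07), and LOC108348456 (Rpl36a-ps9) from 7.94 to 16.1 and from 0 to 7.87 (-2.07). None of these 5 sites overlapped between the groups. At LOC103692308 (-2.51) and LOC100361001 (-2.62) cannabis 5 stood with the controls: it had 9.98 at the former, where the other cannabis libraries had at most 1.24 and the lowest control 8.06, and 12.3 at the latter, where the other 3 had no read. LOC103690239 was higher, from 0 to 7.31 in controls and from 7.45 to 30.0 in cannabis (log2 difference 2.23). With these few reads a value can rest on a handful of RNA ends: LOC102549869 had 35 reads in the 4 controls together, 24 of them in control 1, and 2 in cannabis. With edgeR, P was above 0.01 at LOC103692308 (-2.14), LOC100361001 (-1.75), LOC102550062 (-2.0) and LOC108348456 (-1.89), and with DESeq2 at LOC100361001 (-1.87) and LOC108348456 (-1.95). In limma, P under 0.01 was lost without air control 1 at LOC100361001 (-2.44), LOC303566 (-1.92), LOC108348456 (-1.90) and LOC689904 (-1.21). It was also lost without cannabis 5 at LOC103690239 (1.86), LOC102550062 (-1.51) and LOC108348456 (-1.84), without air control 4 at LOC102550062 (-1.77) and without cannabis 1 at LOC108348456 (-1.56).

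**Figure D5:**
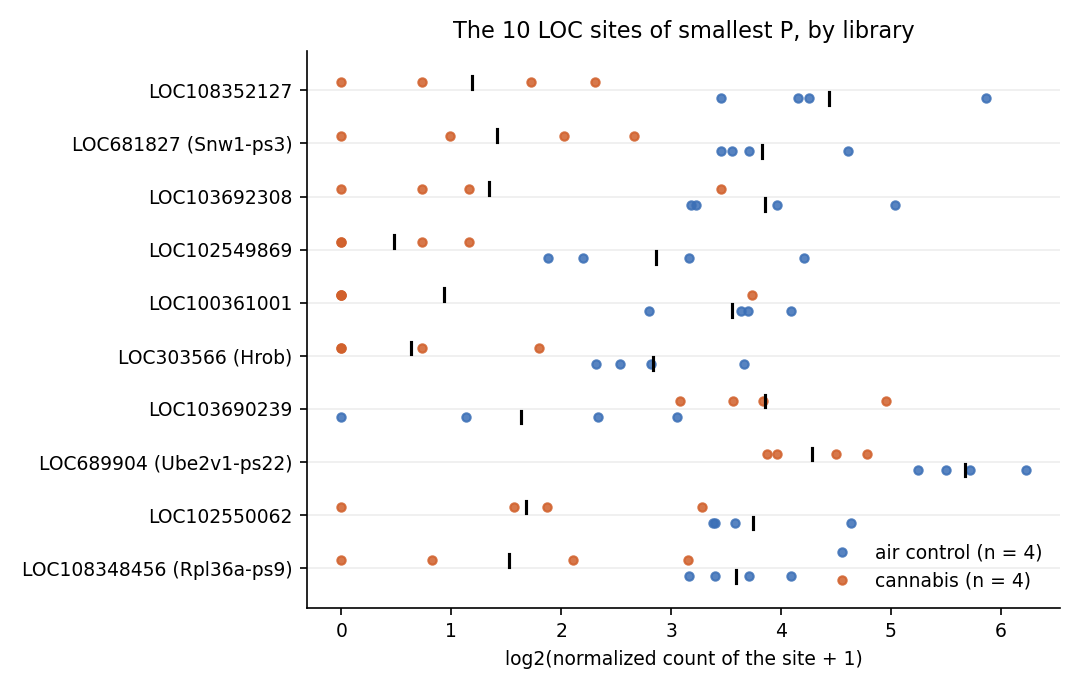
Levels, as log2(normalized count + 1), of the 10 LOC sites of smallest P between the groups in limma, 1 point per library (blue, air control, n = 4; orange, cannabis, n = 4), with black ticks at the group means. Orange points lie to the left in 9 rows and to the right at LOC103690239, and a single orange point, cannabis 5, stands among the blue at LOC103692308 and LOC100361001.

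Besides LOC108352127 and LOC689904, 5 of the 28 sites had a mean of 10 or more normalized counts, and they are named here after their values were seen. LOC311687 (Rpl7a-ps1) had 258, 309, 311 and 473 in air controls 1 to 4, and 273, 193, 95.5 and 19.2 in cannabis 1, 2, 3 and 5 (log2 difference -1.71). LOC102550441 had 609 in control 1, from 59.6 to 108 in the others and from 3.84 to 73.1 in cannabis (-2.27). LOC108352060 (-2.17) and LOC108349217 (2.47) overlapped between the groups as those 2 did, and LOC108348744 (-1.70) did not, from 8.38 to 23.4 in controls and from 0.768 to 7.45 in cannabis. All 5 lost P under 0.01 without cannabis 5, with differences of -0.94 at LOC311687, -1.40 at LOC102550441, -1.42 at LOC108352060, 2.37 at LOC108349217 and -1.21 at LOC108348744. The call at LOC108349217 was also lost without control 2, the only control with no read there (1.35), control 4 (2.28), cannabis 2 (2.40) or cannabis 3 (2.46). It was also lost at LOC311687 without control 4 (-1.54) or cannabis 3 (-1.69), and at LOC102550441 without control 1 (-1.57). LOC108352060 lost it without control 1 (-1.92), control 4 (-1.88) or cannabis 3 (-1.83), and LOC108348744 without control 1 (-1.50), control 3 (-1.78) or control 4 (-1.58). With both edgeR and DESeq2, P was above 0.01 at LOC311687 (-1.19 and -1.22), LOC108352060 (-1.56 and -1.62) and LOC108349217 (1.37 and 1.39). In a limma fit of all 22164 sites with a mean of 10 or more, 2 of the 1193 LOC sites had P under 0.01, against 0.199% of all sites in that fit.

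Summed over the sites of each locus, 21 of the 3738 LOC loci (0.562%) had an unadjusted P under 0.01 in limma, against 0.278% of all 18003 symbols. The higher loci numbered 7 (background 0.10%) and the lower 14 (background 0.178%). After adjustment none passed 0.1 in limma (smallest adjusted P 0.999) or edgeR, and 1 did in DESeq2, LOC689904, while at an unadjusted P under 0.05 there were 112, where the share over all symbols was 2.41%. The groups did not overlap at 77 loci (2.06%), close to the 1.98% of all symbols. Of the 21 loci, 17 also had a site with P under 0.01, and 16 had a mean under 10. By type, 3 lncRNAs were lower and 2 higher, 2 pseudogenes were lower and none higher, 3 protein-coding loci were lower and 1 higher, and the loci without a RefSeq entry gave 6 lower and 4 higher. None of the 41 loci named for heat shock chaperones or the 29 named for the respiratory chain passed, and 1 of the 183 named for ribosomal proteins did, LOC108348456.

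Most of the 10 loci of smallest P had 1 site and are described above as sites. LOC102550062 also had a second site, and its total went from 13.4 to 27.8 normalized counts in controls to from 2.95 to 11.2 in cannabis (log2 difference -1.60, P = 0.0028 and adjusted P = 0.999 in limma, P = 0.029 by an exact permutation test). The total of LOC681827 had a log2 difference of -2.47. LOC102548359, which is not in the RefSeq table, had from 0 to 1.20 in controls and from 2.48 to 6.89 in cannabis, a log2 difference of 1.92. Over all LOC loci the median log2 difference was 0.01, and 0.06 over the other symbols.

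A shortlist of differing sites in the study, chosen on these samples, names 4 LOC loci, so their values here are not independent evidence of a difference. LOC108352127 is given above. The site of LOC103690249 had 0.731, 3.59, 1.34 and 1.99 normalized counts in air controls 1 to 4, and 12.4, 15.3, 3.94 and 5.38 in cannabis 1, 2, 3 and 5 (log2 difference 1.74, P = 0.0065 in limma and 0.029 by an exact permutation test). Its limma P passed 0.01 in 4 of the 8 fits without 1 library, and not without air control 1 or 3 or cannabis 1 or 2 (1.46 at the lowest). It is 1 of 5 sites of the locus, whose total overlapped between the groups. LOC102555913, an lncRNA with 1 site, had 13.9, 9.58, 2.69 and 23.8, and 3.73, 3.32, 2.95 and 2.30 (log2 difference -1.44, P = 0.021 in limma and 0.114 by an exact permutation test; -1.86 with P = 0.011 in edgeR and -1.97 with P = 0.0091 in DESeq2), so control 3 lay within the cannabis range, and without that library the difference was -1.96 with P under 0.01. The site of LOC686774, now Ipo8 and coding for an importin that carries proteins into the nucleus, had 19.7 in control 1, from 0 to 3.59 in the other controls and from 0 to 1.24 in cannabis (log2 difference -1.54, P = 0.066 in limma and 0.171 by an exact permutation test), and without control 3 its difference was -2.22 with P under 0.01. The size and the call of LOC686774 changed with the tool, to -3.57 in edgeR and -3.86 in DESeq2, both with P under 0.01.

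The use of one site over another could be tested in 343 LOC loci, those with 2 or more sites, a mean total of at least 20 normalized counts and a mean of at least 5 outside the main site. The main site, that with the most reads, held a median of 57.6% of a locus's level in controls and 56.9% in cannabis (60.5% and 61.5% over all 6766 symbols tested). No LOC locus had a P under 0.01 for the log2 ratio of the main site to the rest in limma, the only tool run on usage, against 0.236% of all symbols, and 17 had a P under 0.05, where the share over all symbols was 2.53%. The smallest P, 0.011, was at LOC102547903, whose main site of 11 held 36.4%, 41.4%, 28.3% and 37.5% in air controls 1 to 4, and 21.4%, 11.4%, 16.7% and 22% in cannabis 1, 2, 3 and 5. The groups did not overlap there, nor at LOC100361281 (Slc25a13-ps1, after a mitochondrial aspartate and glutamate carrier), with 59.1% ± 6.49 in controls and 34.9% ± 11.5 in cannabis, nor at LOC100361436 (Wbp4-ps1), with 33.7% ± 7.45 and 54.5% ± 8.97 (SD, n = 4). They overlapped at LOC108350513, 64.3% ± 16.2 and 36.6% ± 14.6, and at LOC108352060, 40.4% ± 24.3 and 74.5% ± 22.7 (SD, n = 4).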

How the data were processed

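Each library came with 1 file of values per 3' end site, which were joined by row. The deposited values are a signal: read counts per site after the authors had divided each library by its DESeq2 size factor, here called normalized counts. The authors kept reads of at least 16 nt, aligned them with TMAP 3.4.1 to Rnor_6.0, clustered read ends in a 24-nt window, dropped sites under 16 reads and named genes with Cuffcompare 2.2.1. From their differing sites they also removed those of low mapping quality. Sites were not filtered by mapping quality here. Every value was a whole multiple of what 1 read is worth in its library (tolerance 0.001), which gave back the reads (100% of values). The libraries held 1159811 to 3706778 reads on sites. Intervals of counting error alone would understate the spread between rats, and a library's floor of 3 reads is at most 0.000259% of its reads. No other column of per-sample values was present.

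The members and gene lists were chosen with earlier results of these data known. Members matched RefSeq (GRCr8) by gene ID, and no coordinates were carried between builds. limma 3.58.1 (trend, pseudocount 1, R 4.3.3) was fitted to all sites, to totals of all symbols, and to the main site against the rest. The study's methods describe a cohort of 8 rats a group with libraries built for all rats, and also give 8 as the number of libraries sequenced. Analysed here were 8 libraries, 4 a group, and P-values measure the spread between them. The threshold was an unadjusted P of 0.01, beside a Benjamini-Hochberg adjusted P of 0.1. Named loci are the 10 most abundant (1 of them is not reported here), the 10 sites and 10 loci of smallest P, the 5 with most sites, 4 on a shortlist of the study, the 3 highest and 3 lowest CVs among loci with a mean of 50 or more, and the 5 smallest P of usage. Copies were compared with the gene before the hyphen of their RefSeq name. The other settings tried were a block for the replicate number, leaving out single libraries, pseudocounts 0.5 and 5, a higher minimum level, edgeR 4.0.16, DESeq2 1.42.0 and scaling to equal totals. Same-numbered libraries did not deviate together (correlations -0.230, 0.080 and -0.003), so the numbers did not pair them. Replicates differed well beyond sampling noise (chi-square per site of 6.36 or more), so none was counted as a duplicate. On simulated data (log2 change 2, dispersion fixed at 0.2) the site fit found 93.0% of 200 changed sites of 98356. The locus fit found 88.0% of 25 symbols of 18003 and the usage fit 77.2% of 92 of 6766. These rates were not measured separately for sites or loci of few reads. They do not show how often a change would be found at most LOC sites, whose median mean was 3.62 normalized counts.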

Additional observations from a re-analysis of the deposited data

Results flagged for a closer look

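In 10 of 88 groups of 4 libraries checked for a single library far from the rest, 1 library stood apart. Chance flags about 1 in 20 groups of unselected, normally distributed values. Many of the loci checked were chosen on these same values, for their spread or small P, and many had few reads, so the rates cannot be compared. Normalized counts are given. Air control 1 had 698 at LOC102550441 (83.4 to 140 in the other controls), 78.2 at LOC102547903 (30.9 to 34.7), 34.4 at LOC686774 (9.58 to 11.9) and 23.4 at the LOC681827 site (9.93 to 12.1). Air control 4 had 23.8 at the LOC102550062 site (9.40 to 11.0). Cannabis 1 had 797 at LOC257642 (33.5 to 69.1 in the other cannabis libraries), and cannabis 3 had 223 at LOC691091 (24.8 to 36.5). Cannabis 5 had 9.98 at LOC103692308 (0 to 1.24) and 12.3 at LOC100361001, where the other 3 had no read. Cannabis 2 had 17.9 at LOC686774 (7.87 to 9.22).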

How the results depend on the processing

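When single libraries were left out, the LOC sites with P under 0.01 numbered from 17 to 55 (28 with all 8), the loci from 11 to 24 (21 with all 8) and the usage differences from 0 to 2 (none with all 8). Over all features the numbers also moved, from 227 to 617 sites, 30 to 90 symbols and 8 to 37 usage differences. Without air control 3 there were 55 sites (617 of all 98356), without cannabis 5 there were 17 (227 of all), and without cannabis 3 there were 11 loci (61 of all 18003 symbols). A minimum mean of 10 left 2 sites of 1193 and 4 loci of 1267 (44 of 22164 sites and 29 of 12114 symbols over all). At P under 0.05 there were 190 sites, 112 loci and 17 usage differences (3.03%, 2.41% and 2.53% over all features). With the replicate block, 24 sites, 13 loci and 1 usage difference passed (229, 24 and 14 over all features). The fewer loci do not bear on the size of an effect, since the numbers did not pair the libraries. The block also gave the site of LOC100361001 an adjusted P under 0.1, while that site lost P under 0.01 in edgeR (-1.75, P above 0.05) and DESeq2 (-1.87, P above 0.05). Without air control 4 and cannabis 1, the libraries with fewest reads (an alternative chosen after seeing the data), 29 sites and 22 loci passed (427 and 70 over all features). Among sites and loci with P under 0.01, higher ones outnumbered lower ones only without air control 1 (13 sites and 10 loci higher, 8 and 4 lower), and without air control 3 there were 12 loci each way. Over all features without air control 1, 141 sites were higher and 90 lower, with 15 symbols each way. Without air control 3, 49 of all symbols were higher and 35 lower. The difference in the LOC share of reads, -0.018 percentage points, ranged from -0.061 to 0.032 over the fits without 1 library, its sign turning to 0.032 without cannabis 2 and to 0.013 without LOC100362110. None of the 18 sites, 11 locus totals and 5 usage differences refitted changed its sign under the alternatives run; of 277 refits of the sites 59 lost P under 0.01 and 5 gained it, and of 168 refits of locus totals 45 lost it. The means of the named loci moved by less than 1 SD under scaling to equal totals. Leaving out 1 of 8 libraries cannot move a mean by 1 SD of the same 8 values, so that setting could not test the means.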
